A study of Mus musculus with 8 samples.

Results

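The tumour suppressor p53, encoded by *Trp53*, and 9 of its best known target genes were read from the gene counts of 8 RNA-Seq libraries of a mouse medullary thymic epithelial cell (mTEC) line. The members were chosen by symbol: *Trp53*, *Cdkn1a*, *Mdm2*, *Ccng1*, *Sesn1*, *Bax*, *Gdf15*, *Pmaip1*, *Bbc3* and *Eda2r*. All 10 were among the 24052 symbols counted, and 9 of the 10 had enough counts to be among the 11672 genes tested. *Gdf15* had not.

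p53 is a transcription factor that is held at a low level in unstressed cells because the ubiquitin ligase encoded by *Mdm2* marks it for degradation. When DNA is damaged or a cell is otherwise stressed, p53 is stabilised, binds its response elements and raises genes that arrest the cell cycle, start apoptosis, support DNA repair or adjust metabolism. *Mdm2* is itself a target, which closes a feedback loop, so that in cells with working p53 the mRNA of its targets is widely used as a readout of its activity.

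The study asked how the autoimmune regulator gene *Aire* and contact with thymocytes shape the mTEC transcriptome. WT mTEC 3.10 is an untransfected line of C57BL/6 mice, and the mutant E6 is 1 clone grown from a single cell of that line after transfection with a vector for GFP, Cas9 and a guide RNA against *Aire*. The labels give its genotype as *Aire* +/-, whereas the study's text describes mutations in both alleles. Each cell type was sequenced before and after thymocyte adhesion, that is, without thymocytes or after 12 h with thymocytes of C57BL/6 mice at 50 thymocytes per mTEC, from which adherent thymocytes were then washed off. There were 2 libraries per group. The *Aire* mutation cannot be told apart from transfection with the vector, sorting and cloning, which are not described for the WT cells. The study's text names WT cells electroporated without the vector as controls and does not say whether these were sequenced. The labels give 2 passages for all cells and a culture of 12 or 24 h, which was 12 h for both WT libraries before adhesion and 12 h for 1 and 24 h for 1 library of every other group. Nothing in the sources used here says that the 2 libraries of a group came from separate cultures, so p-values measure only the spread between these libraries.

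The libraries held 13506610 to 20145154 counts on genes, at which depth 3 counts correspond to 0.149 to 0.222 counts per 1000000 counts on genes (CPM), a floor that covers counting error only. The levels given below are CPM further scaled by the TMM method. The epithelial genes *Epcam*, *Krt8*, *Krt18*, *Krt14* and *Cldn4* each had 267.3 CPM or more in every library and *Foxn1* 11.1 CPM or more. *Aire* had no count in the 4 libraries before adhesion and 0 and 3 counts in the 2 libraries after adhesion of each cell type, so it could not check the genotype. *Fezf2*, *Cd80*, *Tnfrsf11a* and *Cldn3* stayed at or under 0.36 CPM and *Krt5* at or under 1.02 CPM. Replicate 1 of WT after adhesion stood apart from the other 7 libraries: 66.7% of its alignments fell on genes against 75.7% to 78.8%, and its values dropped by 0.46 on the log2 scale per 10% of GC content, where the others ranged from -0.02 to 0.13. For the members, the averaged difference of E6 from WT is given with and without it, or as a range over the libraries left out. The summed level of the 16 thymocyte markers counted, of 25 listed, was 0.536 to 1.33 CPM in the 4 libraries before adhesion, 19.4 and 30.7 CPM in WT after adhesion, and 131.8 and 164.8 CPM in E6 after adhesion. No library before adhesion reached the floor for more than 3 of these markers. In bulk RNA, fewer cells of a type and less RNA per cell cannot be told apart.

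The p53 response element is made of 2 adjoining blocks of 10 bases, each with 3 purines, a C, a pair of bases that are A or T, a G and 3 pyrimidines. It was searched in windows of 300 bases, 250 before and 50 after each annotated start (RefSeq, GRCm38.p6), with the C and the G of both blocks fixed, up to 3 mismatches elsewhere and 0 or 1 bases between the blocks. The element reads the same way on both strands. Of the 9 members searched, all but *Pmaip1*, with 14 windows, 6 held such a match, and of all genes with a window 3.27% did. The windows with the closest matches, each with 1 mismatch, are shown whole, 5′ to 3′ on the strand of the gene, with the match in capitals.
*Cdkn1a*, chr17:29090729-29091028, plus strand: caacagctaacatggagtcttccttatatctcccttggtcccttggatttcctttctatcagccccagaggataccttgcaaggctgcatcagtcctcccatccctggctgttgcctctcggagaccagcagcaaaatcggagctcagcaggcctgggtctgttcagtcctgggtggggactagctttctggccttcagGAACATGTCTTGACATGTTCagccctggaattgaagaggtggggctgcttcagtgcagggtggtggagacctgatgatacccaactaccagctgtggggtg
*Ccng1*, chr11:40755237-40755536, minus strand: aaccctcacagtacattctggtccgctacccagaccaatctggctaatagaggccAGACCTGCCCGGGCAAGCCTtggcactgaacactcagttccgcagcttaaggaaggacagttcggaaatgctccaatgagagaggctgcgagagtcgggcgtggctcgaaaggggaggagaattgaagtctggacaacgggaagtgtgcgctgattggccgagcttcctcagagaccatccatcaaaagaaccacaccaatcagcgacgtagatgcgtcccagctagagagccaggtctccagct
In *Cdkn1a* the match lay at -51 to -32 from the upstream of its 2 annotated starts, counted with -1 as the last base before the start. The other start lies 2790 bases downstream and its window held none. In *Ccng1* the match lay at -195 to -176. The looser matches, of 2 mismatches with 1 base between the blocks in *Bax* and 3 mismatches in the others, are shown with 30 bases on either side, to set them against the closer ones.
*Bax*, match at chr7:45467079-45467099, minus strand: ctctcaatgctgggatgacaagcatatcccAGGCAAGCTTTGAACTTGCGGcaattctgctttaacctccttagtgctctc
*Bbc3*, match at chr7:16309486-16309505, plus strand: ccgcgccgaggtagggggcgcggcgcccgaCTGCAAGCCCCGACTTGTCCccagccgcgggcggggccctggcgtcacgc
*Sesn1*, match at chr10:41887266-41887285, plus strand: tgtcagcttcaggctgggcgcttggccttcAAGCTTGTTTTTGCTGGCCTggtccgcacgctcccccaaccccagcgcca
*Trp53*, match at chr11:69580284-69580303, plus strand: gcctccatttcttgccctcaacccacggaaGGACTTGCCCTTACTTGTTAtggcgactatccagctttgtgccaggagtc
The windows of *Mdm2*, *Eda2r* and *Gdf15* held no match, which says only that these letters are not in these windows. A match is a description of sequence and not a measurement of binding.

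E6 was compared with WT over both conditions to see how the mutant clone differed from the line it came from. *Mdm2* and *Eda2r* were DE, and both were lower in E6, at 0.538-fold and 0.566-fold of WT. *Trp53* itself, *Ccng1* and *Sesn1* were also lower in E6 and *Cdkn1a*, which encodes the cell cycle inhibitor p21, was higher, all 4 past the FDR limit but short of the FC limit. *Pmaip1*, *Bax* and *Bbc3* did not pass the test. DE here means a Benjamini-Hochberg FDR under 0.05 over all tested genes in edgeR's quasi-likelihood test and an FC of at least 1.5. A fit that leaves out a library leaves 1 in its group, whose spread is then not measured. SE, FDR and DE calls of such fits are thus not comparable with those of the full fit. The libraries of WT after adhesion differed most from each other. A smaller SE or FDR without 1 of them is therefore not evidence of a firmer difference. By this rule 2 of 9 members were DE, beside 11.3% of all tested genes, and both were lower, beside 6.13% lower and 5.22% higher of all genes. By the FDR alone 6 of 9 passed, beside 20.9% of all genes, and 5 of them were lower, beside 10.7% of all genes. The median log2 FC of the 9 members was -0.56, and that of all tested genes was -0.01.

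**Figure D1:**
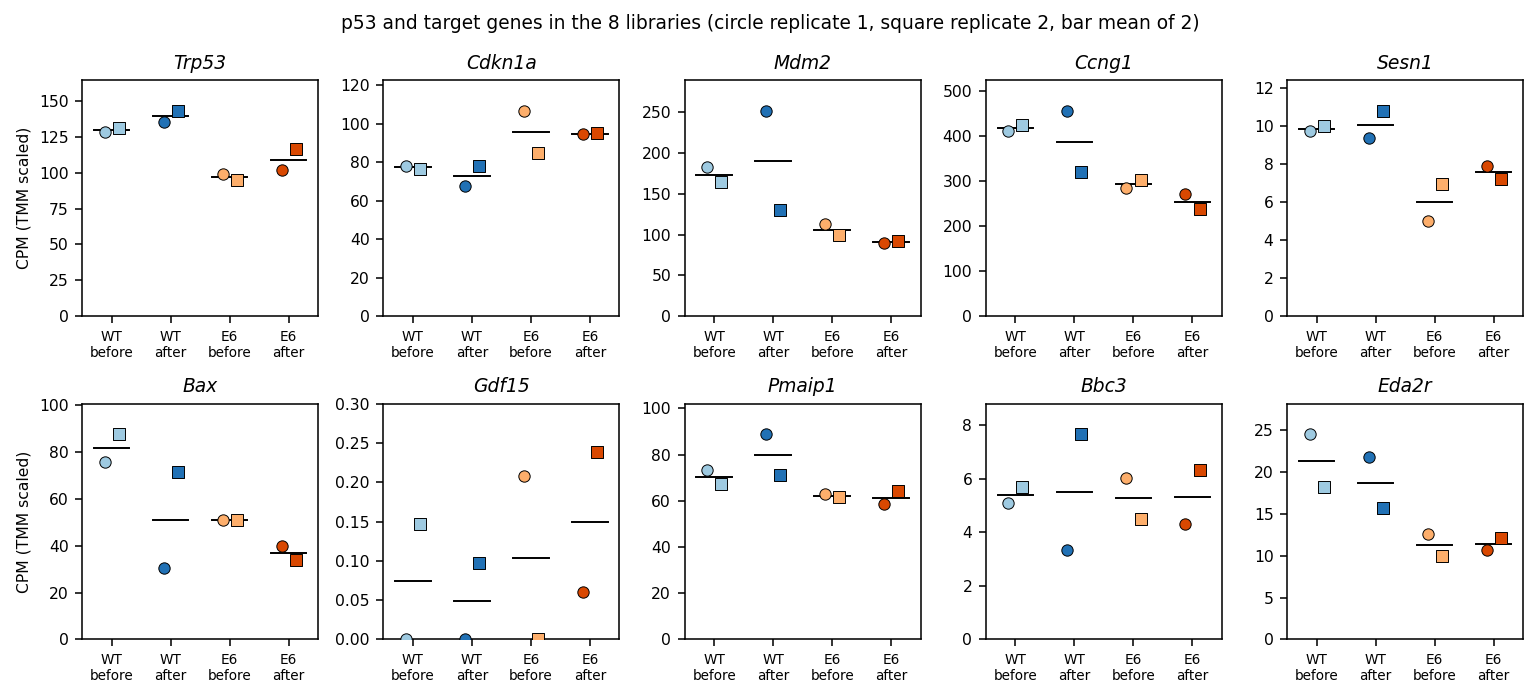
Level of each member in CPM (vertical axes, each starting at 0) in the 2 libraries of WT before, WT after, E6 before and E6 after adhesion, with circles for replicate 1, squares for replicate 2 and bars for the mean of 2 libraries. *Mdm2* lay between 89.4 and 112.5 CPM in E6 and between 130.0 and 251.8 CPM in WT, while *Cdkn1a* lay between 84.9 and 106.7 CPM in E6 and between 67.4 and 78.3 CPM in WT.

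*Trp53* lies at chr11:69580359-69591873 on the plus strand (GRCm38, GENCODE vM21). It had 128.3 and 131.3 CPM in the 2 libraries of WT before adhesion and 135.9 and 143.3 CPM in those after. The E6 libraries had 98.9 and 95.2 CPM before adhesion and 101.8 and 116.4 CPM after. Every WT library was above every E6 library. The log2 FC of E6 against WT was -0.39 (SE 0.08, FDR 0.0155 in edgeR's quasi-likelihood test), a mean of 103.1 ± 9.30 CPM in E6 against 134.7 ± 6.54 CPM in WT (SD, n = 4 each).

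*Mdm2* (chr10:117688875-117710758, minus strand), which encodes the ubiquitin ligase that restrains p53, had 182.5 and 165.0 CPM in WT before adhesion and 251.8 and 130.0 CPM after. Levels in E6 were 112.5 and 99.0 CPM before and 89.4 and 92.2 CPM after. All 4 E6 libraries were below all 4 WT libraries, and the WT libraries after adhesion were themselves far apart. The log2 FC amounted to -0.89 (SE 0.19, FDR 0.0188 in edgeR's quasi-likelihood test). Without replicate 1 of WT after adhesion, where *Mdm2* was highest, it was -0.60, and without replicate 2 of that group -1.08. Leaving out either library of WT before, E6 before or E6 after adhesion moved the FDR to between 0.0669 and 0.0914, with log2 FC from -0.94 to -0.85, so that the DE call was lost. Correcting every library for its GC trend gave -0.83 (FDR 0.00908). The exons of *Mdm2* have 46.2% GC.

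*Cdkn1a* (chr17:29090976-29100727, plus strand) had 78.3 and 76.6 CPM in WT before adhesion and 67.4 and 78.1 CPM after. E6 had 106.7 and 84.9 CPM before and 94.9 and 95.0 CPM after. It was the one member that was higher in every E6 library than in every WT library. This gave a log2 FC of 0.34 (SE 0.10, FDR 0.0468 in edgeR's quasi-likelihood test), and the FDR moved past 0.05 with the GC correction (0.26, FDR 0.0549) and without a filter on low counts (0.37, FDR 0.0552). The 3 genes with the most similar profile over the 8 libraries, by the Euclidean distance of centred log2 CPM among 10292 genes, were *Zbtb4* at 0.18, *Ap1m1* at 0.19 and *Eif2ak3* at 0.19. The median distance of all others was 0.84, and *Mdm2* stood at 1.91. Of the tested members, *Bbc3* was closest to *Cdkn1a*, at 0.93.

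*Ccng1* (chr11:40748552-40755311, minus strand) encodes cyclin G1, one of the first p53 targets described. It had 411.4 and 423.6 CPM in WT before adhesion and 455.5 and 319.1 CPM after. In E6 it had 284.3 and 303.0 CPM before and 270.7 and 237.3 CPM after. The lowest WT library was above the highest E6 library, with replicate 2 of WT after adhesion nearest to E6. Its log2 FC was -0.56 (SE 0.13, FDR 0.0209 in edgeR's quasi-likelihood test), which was -0.40 without replicate 1 of WT after adhesion and -0.66 without replicate 2 of it.

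*Sesn1* (chr10:41809935-41908424, plus strand) encodes sestrin 1, a stress protein that restrains growth signalling through mTORC1. It was low, at 9.72 and 10.02 CPM in WT before adhesion and 9.36 and 10.8 CPM after. The E6 libraries had 4.99 and 6.96 CPM before and 7.90 and 7.23 CPM after. WT libraries were tightly grouped and all above E6. The log2 FC was -0.57 (SE 0.14, FDR 0.0304 in edgeR's quasi-likelihood test). It was -0.59 without replicate 1 of WT after adhesion, -0.49 without replicate 2 of that group and -0.70 without replicate 2 of E6 before adhesion. Without either library of WT before, replicate 1 of E6 before or either library of E6 after adhesion the FDR was 0.102 to 0.131, past the limit.

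*Bax* (chr7:45461697-45466898, minus strand) encodes a pore-forming protein of the outer mitochondrial membrane. It had 75.6 and 87.6 CPM in WT before adhesion and 30.6 and 71.4 CPM after. Levels in E6 were 50.8 and 50.9 CPM before and 39.8 and 34.05 CPM after. Replicate 1 of WT after adhesion was the lowest of all 8 libraries, and the other 3 WT libraries were above every E6 library. The exons of *Bax* have 63.5% GC, and of the members only *Bbc3* has more. Over all 8 libraries its log2 FC was -0.58 (SE 0.24, FDR 0.131 in edgeR's quasi-likelihood test). The GC correction gave -0.62 (FDR 0.00608), which was DE. The log2 FC was -0.80 without replicate 1 of WT after adhesion and -0.19 without replicate 2 of that group.

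*Pmaip1*, which encodes the BH3-only protein NOXA, had 67.3 to 88.8 CPM in the 4 WT libraries, with a median between 71.1 and 73.3 CPM. E6 had 62.9 and 61.5 CPM before adhesion and 58.5 and 64.0 CPM after. All WT libraries were above all E6 libraries, by a margin of a few CPM at the nearest pair. The log2 FC of -0.28 (SE 0.10) had an FDR of 0.0815 in edgeR's quasi-likelihood test. Without replicate 1 of WT after adhesion, its highest library, it was -0.18, and without replicate 2 of that group -0.34. The GC correction gave -0.15 (FDR 0.116).

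*Bbc3* (chr7:16308393-16318205, plus strand), which encodes the BH3-only protein PUMA, was low everywhere. It had 5.10 and 5.68 CPM in WT before adhesion and 3.33 and 7.64 CPM after, against 6.03 and 4.50 CPM in E6 before and 4.31 and 6.33 CPM after. The cell types overlapped throughout. Its log2 FC of -0.05 (SE 0.28, FDR 0.922 in edgeR's quasi-likelihood test) turned to 0.33 without replicate 2 of WT after adhesion. Leaving out replicate 2 of E6 before or replicate 1 of E6 after adhesion also turned it, to 0.05 and 0.08.

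*Eda2r* (chrX:97333840-97377216, minus strand) encodes a receptor of the tumour necrosis factor receptor family that binds ectodysplasin A2. It had 24.5 and 18.3 CPM in WT before adhesion and 21.8 and 15.7 CPM after. In E6 it had 12.6 and 10.02 CPM before and 10.7 and 12.1 CPM after. No E6 library reached the lowest WT library. The log2 FC amounted to -0.82 (SE 0.17, FDR 0.0144 in edgeR's quasi-likelihood test), the lowest FDR among the members. The log2 FC was -0.69 and -0.93 without replicate 1 and 2 of WT after adhesion. It was -0.92 without replicate 2 of WT before and -0.91 without replicate 1 of E6 before adhesion. The DE call was lost without replicate 1 of WT before (-0.71), replicate 2 of E6 before (-0.74) or replicate 1 or 2 of E6 after adhesion (-0.78 and -0.87).

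*Gdf15* (chr8:70629393-70632456, minus strand) encodes a secreted stress cytokine that p53 raises in many cell types. It had 0 and 2 counts in WT before adhesion, 0 and 2 in WT after, 3 and 0 in E6 before, and 1 and 4 in E6 after. The highest value was 0.239 CPM. These counts are at or near the floor in every group, and no FC is given.

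Over the 9 tested members, the 4 E6 and 4 WT libraries did not overlap for 7. They were lower in E6 for 6, beside 15.5% of all tested genes, and higher for 1, beside 15.7% of all tested genes. With a library left out, the log2 FC ranged from -0.44 to -0.34 for *Trp53*, from 0.26 to 0.42 for *Cdkn1a* and from -0.66 to -0.40 for *Ccng1*. None of these 3 genes passed the FDR limit when a library of WT before, E6 before or E6 after adhesion was left out.

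The members spanned a wide range of levels. Per kilobase of exon, the mean over the 8 libraries was 96.3 ± 23.0 CPM per kb for *Ccng1* (SD, n = 8), whose lowest library, at 67.6, was above every library of every other member. *Bax* (34.96), *Trp53* (29.4), *Mdm2* (27.6), *Pmaip1* (25.1) and *Cdkn1a* (24.0 CPM per kb) followed and overlapped one another. *Eda2r* (2.67), *Bbc3* (2.53) and *Sesn1* (2.10 CPM per kb) formed a lower tier, within their spread of each other, and *Gdf15* was last at 0.0507 CPM per kb.

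The contrast of E6 with WT was also made within each condition, with 2 libraries against 2. The values after adhesion include whatever thymocyte RNA remained, and the thymocyte marker sum was then higher in E6 than in WT, whose part in these values was not tested. Before adhesion, where that sum was at most 1.33 CPM, *Eda2r* had a log2 FC of -0.93 (SE 0.23, FDR 0.0668), *Mdm2* -0.72 (SE 0.27, FDR 0.183), *Sesn1* -0.71 (SE 0.20, FDR 0.0889) and *Cdkn1a* 0.31 (SE 0.14, FDR 0.266) in edgeR's quasi-likelihood test. None of the 9 members was DE, beside 5.01% of all genes. In edgeR 5 of them had an unadjusted p under 0.05, beside 2521 of all 11672 tested genes. DESeq2 called 1 member, *Eda2r*, beside 806 of all tested genes. The fit shares 1 estimate of the spread over all 8 libraries. Fitted on the 4 libraries before adhesion alone, *Mdm2*, *Sesn1*, *Bax* and *Eda2r* were DE. The share of all tested genes called in that fit is not given here, so these calls are not read as particular to the members. After adhesion, *Mdm2* had -1.07 (SE 0.28, FDR 0.0519), *Eda2r* -0.71 (SE 0.23, FDR 0.0940), *Ccng1* -0.61 (SE 0.18, FDR 0.0706) and *Cdkn1a* 0.38 (SE 0.14, FDR 0.122). Again 0 of 9 were DE in edgeR, beside 8.91% of all genes. An unadjusted p under 0.05 in edgeR was found for 6 members, beside 3464 of all 11672 tested genes. DESeq2 called 2 members, *Mdm2* and *Ccng1*, beside 1301 of all tested genes. With a library left out, the log2 FC after adhesion ranged from -1.45 to -0.49 for *Mdm2* and from -0.91 to -0.43 for *Eda2r*. It ranged from -0.82 to -0.30 for *Ccng1* and from 0.31 to 0.52 for *Cdkn1a*. The sign was the same before and after adhesion for each of the 9 members, for *Bbc3* at only -0.04 (SE 0.40) and -0.07 (SE 0.39). The share of all tested genes that kept their sign is not given here. The 2 contrasts come from different libraries but from the same fit, and both compare the same clone with the same line.

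**Figure D2:**
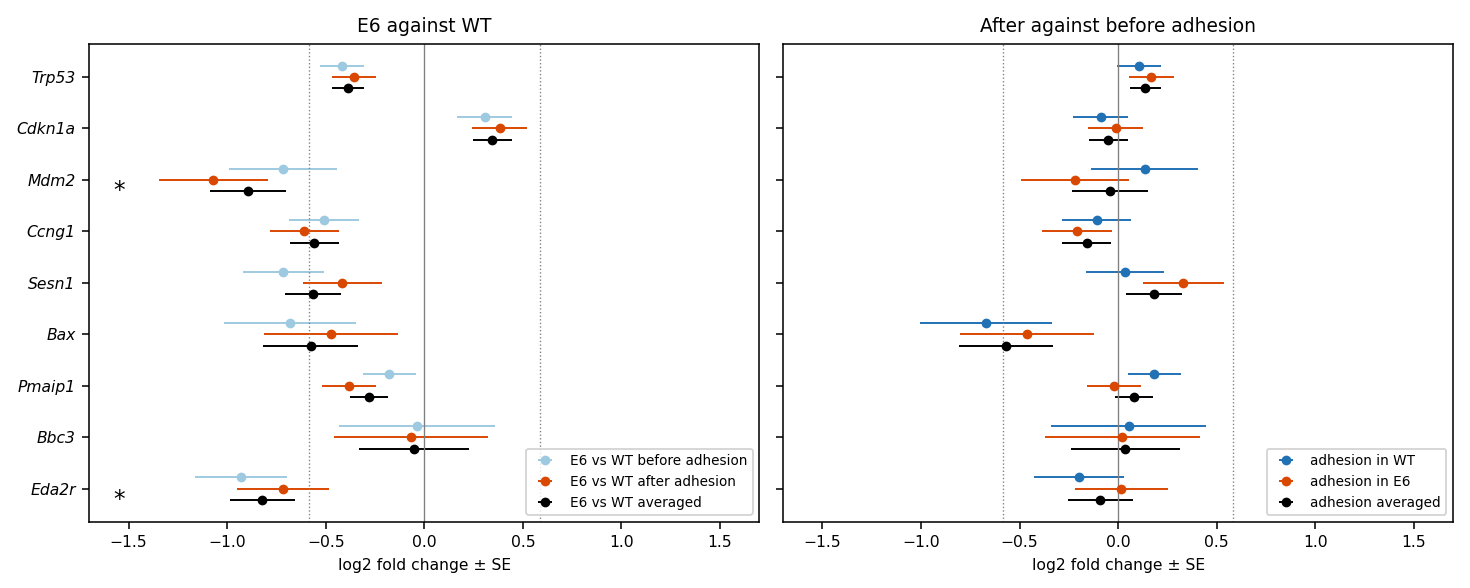
Log2 FC (horizontal axis) with its SE (bars) of the 9 tested members, for E6 against WT on the left and after against before adhesion on the right, each in both strata and averaged. Dotted lines mark an FC of 1.5 and stars the DE calls, which are *Mdm2* at -0.89 and *Eda2r* at -0.82 in the averaged contrast of the cell types. On the right no member is DE, and *Bax* lies farthest from 0, at -0.67 in WT and -0.57 averaged.

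Thymocyte adhesion was compared within and over the cell types to see whether contact moved p53 or its targets. None of the 9 members was DE averaged over the cell types, beside 1.89% of all genes. In edgeR 1 member, *Bax*, had an unadjusted p under 0.05, beside 1154 of all 11672 tested genes, and DESeq2 called 0. The log2 FC of *Bax* after against before was -0.57 (SE 0.24, FDR 0.496 in edgeR's quasi-likelihood test). It was -0.32 without replicate 1 of WT after adhesion and -0.94 without replicate 2 of that group. *Trp53* had 0.14 (SE 0.08), *Cdkn1a* -0.05 (SE 0.10) and *Mdm2* -0.04 (SE 0.19), with FDR of 0.638 to 0.943. *Sesn1* had the highest value, 0.18 (SE 0.14, FDR 0.692). The values of *Cdkn1a* and *Mdm2* changed sign under other settings.

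Within WT 0 of 9 members were DE, beside 0.00% of all genes, and within E6 0 of 9, beside 2.00% of all genes. In both, edgeR gave no member an unadjusted p under 0.05 and DESeq2 called none. *Mdm2* had a log2 FC of 0.13 (SE 0.27) in WT and -0.22 (SE 0.27) in E6. The effects in the 2 cell types did not differ past the threshold for any member, with differences from -0.35 (SE 0.39) for *Mdm2* to 0.30 (SE 0.28) for *Sesn1*. That count of 0 stands beside 0.00% of all genes, with 0 members at an unadjusted p under 0.05 in edgeR and 0 called by DESeq2. Members were called for adhesion in WT and for the difference in the fit without replicate 2 of WT after adhesion. That fit does not measure the spread of WT after adhesion, and its share of all genes called is not given here. These calls are thus not read as particular to the members. The SE of *Bax* and *Bbc3* in WT, 0.34 and 0.39, were several times that of *Trp53*, 0.11.

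The p53 pathway beyond the members was read from 6 lists of 79 genes, of which 73 were tested. Averaged over the conditions, 13 of the 73 were DE between E6 and WT, beside 11.3% of all genes. Of the 13, 10 were lower and 3 higher in E6, beside 6.13% lower and 5.22% higher of all genes. Leaving out 1 library at a time gave 5 to 13. The fewest came without either library of WT before, replicate 2 of E6 before or replicate 1 of E6 after adhesion. For fits with a library left out, the share of all genes called is not given here. Their counts are thus not read as particular to the lists. DESeq2 called 15, beside 1380 of all 11672 tested genes. The median log2 FC was -0.12 over the 73 genes.

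Among targets that arrest the cell cycle, 1 of 8 tested was DE, beside 11.3% of all genes. It was *Zmat3*, which encodes an RNA-binding zinc finger protein. *Zmat3* had 82.6 and 78.0 CPM in WT before adhesion and 84.7 and 61.0 CPM after. The E6 libraries had 43.6 and 41.1 CPM before and 34.96 and 32.1 CPM after. The cell types were clearly apart, with a log2 FC of -1.02 (SE 0.12, FDR 0.00198 in edgeR's quasi-likelihood test). The log2 FC ranged from -1.12 to -0.88 with a library left out. *Plk2*, which encodes a polo-like kinase and was named after its values were seen, was higher in E6 by the FDR alone, at 0.36 (FDR 0.0230), with E6 and WT libraries that overlapped. The other 6 tested genes of the list did not pass, and the list's median was 0.06.

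Among apoptotic targets 4 of 10 were DE, beside 11.3% of all genes. Of these 3 were lower in E6, beside 6.13% of all genes, and the list's median was -0.31. *Trp53inp1*, which encodes a stress protein that p53 induces, had 15.6 to 20.8 CPM in the 4 WT libraries. Levels in E6 were 6.94 and 3.70 CPM before adhesion and 14.5 and 14.9 CPM after. The groups were thus apart before adhesion and nearly met after it, with a log2 FC of -1.89 (SE 0.28, FDR 0.0146) before, -0.23 (SE 0.26, FDR 0.594) after and -1.06 (SE 0.19, FDR 0.00992) averaged, in edgeR's quasi-likelihood test. The averaged call was lost without replicate 1 of WT before or replicate 1 or 2 of E6 after adhesion, at an FDR of 0.0552 to 0.0567.

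*Fas*, the death receptor, had 10.99 and 9.95 CPM in WT before adhesion and 14.6 and 13.5 CPM after. E6 had 4.16 and 3.43 CPM before and 14.4 and 10.9 CPM after. As with *Trp53inp1*, the gap between the cell types was wide before adhesion (-1.47, SE 0.21, FDR 0.0128) and narrow after (-0.14, SE 0.19, FDR 0.638). The adhesion effects in the 2 cell types differed by 1.32 (SE 0.28) for *Fas* and by 1.66 (SE 0.38) for *Trp53inp1*, at an FDR of 0.988 for both over all genes in edgeR, so this difference did not pass the test. *Fas* averaged -0.81 (FDR 0.00861) in edgeR's quasi-likelihood test and lost the call without replicate 1 of WT before (FDR 0.0538) or replicate 2 of E6 before adhesion (FDR 0.0544). *Apaf1*, the scaffold of the apoptosome, had 33.7 to 36.0 CPM in WT and 20.1 to 23.2 CPM in E6. This gave a log2 FC of -0.71 (SE 0.09, FDR 0.00271), which ranged from -0.76 to -0.66 with a library left out. *Bid*, which encodes a BH3-only protein cleaved by caspases, went the other way, with 44.4 to 59.5 CPM in WT and 70.7 to 81.7 CPM in E6. Its log2 FC of 0.59 (SE 0.11, FDR 0.0103) was just past the FC limit, and it was 0.56, short of it, with the GC correction. *Bid* was also lost without either library of WT before, replicate 1 of WT after, replicate 2 of E6 before or replicate 1 of E6 after adhesion, with log2 FC of 0.51 or more throughout.

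Of 8 targets for DNA repair and nucleotide supply, 0 were DE in edgeR, beside 11.3% of all genes, and DESeq2 called 0. In edgeR 4 had an unadjusted p under 0.05, beside 4117 of all 11672 tested genes. By the FDR alone *Ddb2* (-0.37, FDR 0.0367), *Xpc* (-0.29, FDR 0.0448) and *Ercc5* (-0.49, FDR 0.0251) were lower in E6, beside 10.7% of all genes that were, and all 3 were named after their values were seen. The median of the list was -0.13.

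Among 19 targets of metabolism and other roles 7 were DE, beside 11.3% of all genes, and the median was -0.05. Of the 7, 5 were lower and 2 higher, beside 6.13% lower and 5.22% higher of all genes. *Dcxr*, which encodes a carbonyl reductase, had 4.75 to 9.97 CPM in WT and 2.57 to 3.95 CPM in E6. The log2 FC stood at -1.46 (SE 0.26, FDR 0.00943 in edgeR's quasi-likelihood test), which missed the limit narrowly, at an FDR of 0.0503 to 0.0555, without replicate 2 of WT before, replicate 2 of E6 before or replicate 1 or 2 of E6 after adhesion. *Ephx1*, the microsomal epoxide hydrolase, had 135.6 to 218.3 CPM in WT and 90.6 to 107.7 CPM in E6. The log2 FC amounted to -0.90 (SE 0.10, FDR 0.00173), and it ranged from -0.97 to -0.78 with a library left out. *Gls2*, the p53-induced glutaminase, was at -0.65 (FDR 0.0448), and it was DE in only 1 of the 8 fits with a library left out, the one without replicate 1 of WT after adhesion (-0.80). Without replicate 2 of that group it was -0.40, short of the FC limit, and the call was also lost without a filter on low counts (-0.63, FDR 0.0682). Without any one of the other 6 libraries its FDR was 0.113 to 0.161. *Ak1* (-0.60) and *Abhd4* (-0.63), outside the rule for named genes, were the other 2 lower genes. Higher in E6 were *Gpx1*, a glutathione peroxidase, at 0.65 (SE 0.14, FDR 0.0197) and *Lif*, a cytokine, at 0.60 (SE 0.10, FDR 0.00849). With the GC correction *Gpx1* and *Lif* were at 0.54 each, short of the FC limit. *Gpx1* was DE in 1 of the 8 fits with a library left out, that without replicate 2 of WT after adhesion, and *Lif* in 4 of 8. *Lif* was lost without either library of WT before, replicate 1 of E6 before (0.50) or replicate 1 of E6 after adhesion, at log2 FC of 0.57 to 0.62 in the other 3.

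Of the 13 regulators and relatives of p53 tested, 0 were DE in edgeR, beside 11.3% of all genes, and DESeq2 called 0. In edgeR 3 had an unadjusted p under 0.05, beside 4117 of all 11672 tested genes, and the median was -0.04. *Ppm1d*, the phosphatase that reverses p53 activation and is itself a p53 target, was lower in E6 by the FDR alone at -0.32 (FDR 0.0337). *Rchy1*, which encodes a ubiquitin ligase of p53, was higher by the FDR alone at 0.36 (FDR 0.0236). These were the 2 genes of the list past the FDR limit, beside 20.9% of all genes, and both were named after their values were seen. For neither did the E6 and WT libraries overlap. In the list they did not overlap for 3 genes lower and 1 higher in E6, beside 15.5% lower and 15.7% higher of all tested genes. Of 15 cell cycle genes that p53 lowers through p21, 1 was DE, beside 11.3% of all genes, and the median was -0.26. It was *Ccna2*, which encodes cyclin A2. *Ccna2* had 351.3 to 500.7 CPM in WT and 227.8 to 272.8 CPM in E6, so the cell types did not overlap. This gave a log2 FC of -0.64 (SE 0.12, FDR 0.0101), and without replicate 1 of WT after adhesion, its highest library, it was -0.49. It was DE only without replicate 2 of that group (-0.74), had an FDR of 0.0532 to 0.0641 without any one of the 6 libraries of the other groups, and was at -0.58 with the GC correction, short of the FC limit. By the FDR alone 6 of the 15 were lower, beside 10.7% of all genes. Higher in E6 were 2, *Foxm1* (0.33) and *Mybl2* (0.37), beside 1197 of all 11672 tested genes. Both were named after their values were seen.

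**Figure D3:**
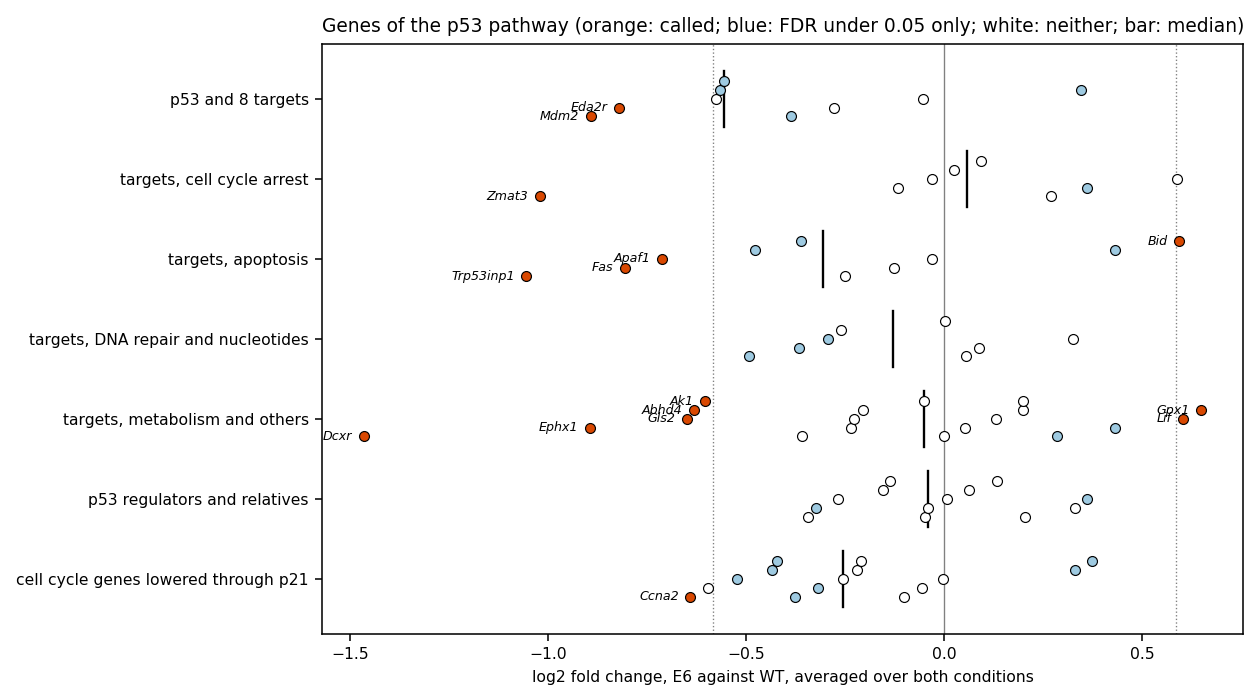
Log2 FC of E6 against WT, averaged over both conditions (horizontal axis), for the tested members and the 6 wider lists, 1 point per gene. Orange points are DE and named, blue points pass the FDR limit alone, white points pass neither, vertical bars are list medians and dotted lines an FC of 1.5. The members' median of -0.56 lies left of every other list's, and orange points stand on both sides only for apoptosis and metabolism.

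After adhesion, averaged over the cell types, 2 of the 73 genes were DE, *Fas* and *Lif*, and both were higher, beside 1.79% of all genes that were. *Fas* had a log2 FC of 1.08 (SE 0.14, FDR 0.0126) and *Lif* of 0.68 (SE 0.10, FDR 0.0240) in edgeR's quasi-likelihood test. *Lif* had 59.2 and 56.4 CPM in WT before adhesion and 77.0 and 82.6 CPM after, and in E6 86.0 and 65.5 CPM before and 146.2 and 135.0 CPM after. Both genes were higher after adhesion in every library of the same cell type. *Fas* lost its call without either library of WT before, either of E6 before or replicate 1 of E6 after adhesion, at an FDR of 0.0538 to 0.0890. *Lif* lost its call without either library of WT before, replicate 2 of E6 before or either of E6 after adhesion, at an FDR of 0.0918 to 0.152. The values left ranged from 0.97 to 1.17 for *Fas* and from 0.58 to 0.78 for *Lif*. Within E6, 3 of the 73 genes were DE and higher after adhesion in edgeR, beside 225 of all 11672 tested genes. They were *Fas* (1.74, FDR 0.0101), *Trp53inp1* (1.48, FDR 0.0492) and *Lif* (0.89, FDR 0.0300). The thymocyte marker sum rose in the same libraries, with 12 of 13 tested markers DE and higher after adhesion, and its part in these values was not tested. The sum of 6 fibroblast markers was also higher in these libraries, at 2.497 and 1.125 CPM before and 15.9 and 11.4 CPM after adhesion in E6, and at 3.10 and 2.14 CPM before and 5.75 and 4.69 CPM after in WT. It includes *Thy1*, which the thymocyte list holds too and which alone had 13.3 and 9.86 CPM in E6 after adhesion and 2.34 and 0.823 CPM in WT after. The part of the fibroblast markers was not tested either. The sum of the myeloid markers was 51.2 to 80.3 CPM and that of the B cell markers at most 0.778 CPM over all groups.

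**Figure D4:**
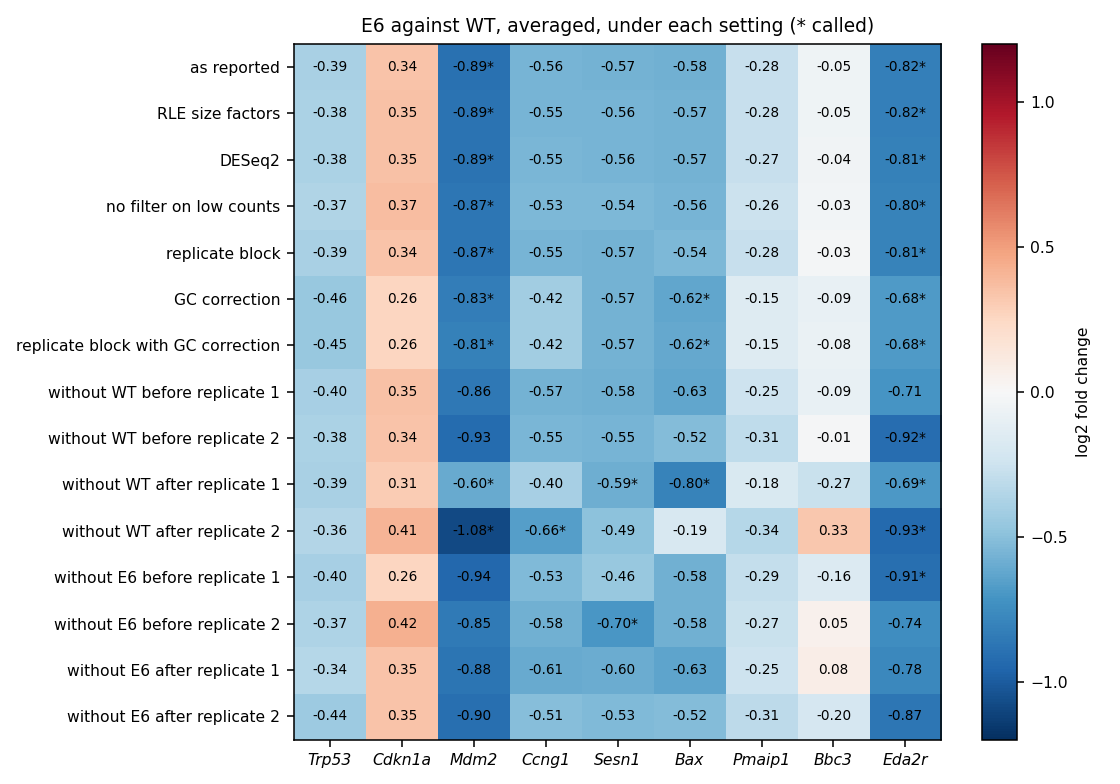
Log2 FC of E6 against WT, averaged over both conditions, for the 9 tested members (columns) under each processing setting (lines), with colour from blue (lower in E6) to red (higher) and stars for DE. *Mdm2* ranged from -1.08 to -0.60 and *Cdkn1a* from 0.26 to 0.42. Without replicate 1 or 2 of WT after adhesion, *Bax* was at -0.80 or -0.19 and *Bbc3* at -0.27 or 0.33.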

How the data were processed

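Gene counts of 8 RNA-Seq libraries were analysed. The authors aligned reads to mm10 (GRCm38) with STAR 2.5.0a, per the submitters' processing notes, counted reads on genes with HTSeq and deposited whole-number counts per gene without normalization. The gene annotation and the strand setting of the counting are not given in the sources used here, and the labels name a stranded mRNA kit where the study's text names another. Antisense and overlapping transcripts could therefore share counts with a gene. On GENCODE vM21, *Cdkn1a* overlaps AC167363.2, *Sesn1* overlaps 9930024M15Rik and *Bax* overlaps Gm45808, none of which is in the count tables. Groups follow the cell type and co-culture named in the sample titles. The protocol text of the E6 libraries before adhesion mentions co-culture, against their titles. Rows that name no gene (21.2% to 33.3% of alignments) were left out, and 18 symbols turned into dates in replicate 1 of E6 before adhesion were restored from the common gene order. *Tigar* was read as 9630033F20Rik, *Cop1* as Rfwd2 and *Adgre1* as Emr1 through RefSeq synonyms. Thymocyte markers outside the 16 found were not analysed here.

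Replicates of a group differed by more than sampling noise (chi-square per degree of freedom of 3.33 to 132.5), so none was counted as a duplicate. In R 4.3.3, edgeR 4.0.16 fitted 1 mean per group to all 8 libraries by quasi-likelihood after filterByExpr and TMM scaling (factors 0.938 to 1.03). The 7 contrasts were the cell types (E6 against WT) without thymocytes, with thymocytes and over both, the effect of adhesion in each cell type and over both, and the interaction of cell type with adhesion. FDR was adjusted over all 11672 tested genes and never over a list. SE was derived as the absolute log2 FC over the square root of the F statistic, which may be too small for genes at low counts. CPM used TMM-scaled library sizes, and profiles used log2 CPM with a prior count of 2. Levels between genes were compared per kb of exon. The procedure was tested on simulated data.

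Alternatives were RLE size factors, DESeq2 1.42.0, no filter on low counts, no FC limit, the replicate block, a lowess GC correction (limma 3.58.1, span 0.3), by itself and in a fit with the block, only the 4 libraries compared, and each library left out. Python 3.11.15, numpy 2.4.6, pandas 2.3.3 and matplotlib 3.10.9 were also used. The members and lists were chosen with earlier results of these data known, and the motif search after the windows were seen. The genes named are the members, up to 3 DE genes with the largest rise and 3 with the largest fall from each list in the averaged contrasts, the 3 genes with the profile closest to *Cdkn1a* (mean log2 CPM of at least 1), *Aire*, marker genes and genes overlapping a member. Others are said to be named after their values were seen.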

Additional observations from a re-analysis of the deposited data

Results flagged for a closer look

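Over the 4 WT libraries, *Cdkn1a* was at 67.4 CPM in replicate 1 after adhesion and at 76.6 to 78.3 CPM in the other 3. The gap to the nearest library was 0.844 of the whole range, past Dixon's critical value for 4 samples. Of 18 such sets of 4 libraries examined, this was the 1 past it, and chance alone puts about 1 in 20 sets there. Without this library the log2 FC of *Cdkn1a* in E6 against WT was 0.31, beside 0.34 with it.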

How the results depend on the processing

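The count of members DE in E6 against WT, averaged, was 2 and became 6 with no FC limit, and that of the 73 wider genes was 13 and became 31. Of all tested genes 11.3% were DE, and 20.9% with no FC limit. Before adhesion the 0 members called became 1 with DESeq2, 3 with the GC correction, 2 with the replicate block and GC correction together and 4 when only the 4 libraries compared were fitted. After adhesion the 0 became 2 with DESeq2, 1 with the GC correction and 1 with the block added to it. DESeq2 called 806 of all 11672 tested genes before and 1301 after adhesion. For the GC correction with or without the block, the 4 libraries alone and each library left out, the share of all genes called is not given here. Those counts are thus not read as particular to the members or lists. Leaving out each library gave 0 to 4 members in each of these 3 contrasts of cell types, 0 to 1 for adhesion averaged, 0 to 2 for adhesion in WT and 0 to 2 for the difference of the adhesion effects, and 5 to 13 (cell types) and 0 to 8 (adhesion, 2 as reported) of the wider genes. Values near 0 changed sign. *Cdkn1a* in adhesion averaged (-0.05) was at 0.0202 with the GC correction and 0.0232 with the block added, and from -0.131 to 0.0326 with a library left out. *Bbc3* was at -0.0118 there with the replicate block, and from -0.33 to 0.28 with a library left out, which took *Mdm2* there from -0.31 to 0.16 and *Eda2r* from -0.205 to 0.0221. In E6 against WT, leaving out a library took *Bbc3* from -0.27 to 0.33 averaged, from -0.26 to 0.17 before and from -0.49 to 0.70 after adhesion, and *Bax* after adhesion from -0.92 to 0.29. The cause was not tested. Replicate numbers were not used as pairs in the main fit. Deviations of same-numbered libraries correlated at 0.19 between the WT groups and at -0.06 to 0.02 between other groups over 10292 genes. With 2 libraries a group, this cannot settle whether same-numbered libraries were handled together. In E6, replicate 1 was cultured for 24 h and replicate 2 for 12 h, both before and after adhesion. The replicate block gave 2 members averaged, as without it, and moved the FDR of *Cdkn1a* from 0.0468 to 0.0735, past the limit. With 2 libraries a group, *Gdf15* and other genes at a few counts could not be compared at this depth.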
